A study of Mus musculus with 36 samples.

Results

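Bile acids are made from cholesterol in hepatocytes, conjugated, pumped into bile and taken up again from portal blood. The 10 genes described here carry out or control those steps in liver: the cytochrome P450 enzymes Cyp7a1, Cyp8b1, Cyp27a1 and Cyp7b1, the conjugating enzymes Slc27a5 and Baat, the transporters Slc10a1 and Abcb11, and the nuclear receptors Nr1h4 and Nr0b2. They were found by gene symbol in the annotation of the array, and every probe carrying one of the symbols was taken. That gave 15 probes for the 10 genes, out of 22916 genes tested. All 15 probes were above background on all 36 arrays, none was saturated, and all passed the filter on low values.

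The study measured total liver RNA on one-colour Agilent arrays in male mice aged 11 weeks, fed chow ad libitum and sampled at Zeitgeber time (ZT, hours after lights on) 8, 12 or 16, with lights off at ZT12. The 2 genotypes are IRLKO, in which tamoxifen induces loss of Insr (the insulin receptor) from hepatocytes, and IRLWT, its control, with 6 arrays per genotype and time. The line carries loxP sites around the fourth exon of Insr and a tamoxifen-dependent Cre under the transthyretin promoter, on crosses with C57BL/6J mice. Whether the controls carried Cre, and when tamoxifen was given, is not given in the sources used here. The labels number the replicates without saying that each is a separate mouse, so p-values measure the spread between these samples. Since whole liver was measured, fewer hepatocytes and less RNA per hepatocyte cannot be told apart.

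In the classic route of synthesis, Cyp7a1 starts the conversion of cholesterol and Cyp8b1 adds the hydroxyl group that leads to cholic acid. In the alternative route Cyp27a1 and Cyp7b1 act on the sterol side chain and ring. Bile acids that return to the hepatocyte bind Nr1h4, the receptor FXR, which dimerises with the retinoid X receptor and induces Nr0b2, the receptor SHP, a repressor of Cyp7a1 and Cyp8b1, as well as Abcb11, the export pump. Insulin is known to act on several of these genes in liver, and several of them are expressed with a daily rhythm.

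Promoter sequences of RefSeq (GRCm38.p6) were matched by symbol to 6 of the 10 genes, with 7 promoters in all because Slc10a1 has 2. The 250 bases before the start site are printed here 5′ to 3′ for both nuclear receptors and for the 2 genes that were higher in IRLKO at ZT16, with motif matches in capitals. They lie at chr10:89506659-89506908 on the minus strand for Nr1h4, chr4:133553126-133553375 on the plus strand for Nr0b2, chr9:121916306-121916555 on the minus strand for Cyp8b1 and chr2:69342617-69342866 on the minus strand for Abcb11.
Nr1h4: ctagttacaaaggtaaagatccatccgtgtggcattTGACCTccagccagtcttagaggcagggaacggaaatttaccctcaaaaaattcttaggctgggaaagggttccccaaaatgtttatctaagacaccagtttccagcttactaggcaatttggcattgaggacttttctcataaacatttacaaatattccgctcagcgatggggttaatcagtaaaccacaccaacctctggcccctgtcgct
Nr0b2: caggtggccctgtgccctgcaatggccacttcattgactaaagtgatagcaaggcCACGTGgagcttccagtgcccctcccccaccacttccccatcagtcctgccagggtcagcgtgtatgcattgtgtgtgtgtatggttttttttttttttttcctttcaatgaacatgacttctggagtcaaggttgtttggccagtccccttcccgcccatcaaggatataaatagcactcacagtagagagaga
Cyp8b1: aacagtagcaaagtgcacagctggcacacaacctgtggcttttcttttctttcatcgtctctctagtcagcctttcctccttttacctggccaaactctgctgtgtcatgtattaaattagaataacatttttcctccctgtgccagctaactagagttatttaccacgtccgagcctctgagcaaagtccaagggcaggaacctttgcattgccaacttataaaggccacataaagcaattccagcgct
Abcb11: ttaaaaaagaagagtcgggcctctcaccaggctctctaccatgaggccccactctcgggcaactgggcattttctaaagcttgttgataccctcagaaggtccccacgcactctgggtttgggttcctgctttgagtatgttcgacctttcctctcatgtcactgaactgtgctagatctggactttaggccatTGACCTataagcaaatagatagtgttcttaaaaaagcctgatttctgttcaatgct
Each promoter was searched on both strands over 250 bases before and 50 bases after the start for the nuclear receptor half-site AGGTCA, the extended half-site CAAGGTCA of Nr5a2, the FoxO element GTAAACA, the E-box CACGTG and the D-box forms TTACGTAA and TTATGTAA. The extended half-site holds the half-site within it. The half-site was found in Nr1h4, from base -214 to -209, and in Abcb11, from base -56 to -51, both on the opposite strand and so printed as TGACCT. One of the 2 Slc10a1 promoters also held it, from base -87 to -82 on the gene's strand. The E-box was found in Nr0b2, from base -195 to -190. No searched motif was in the Cyp8b1 or Cyp27a1 promoter. Among 32851 mouse promoters of the same length, 16.3% held the half-site, 1.56% the extended half-site, 3.65% the FoxO element, 7.15% the E-box, and 0.119% and 0.938% the D-box forms. These matches are descriptions of letters.

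Levels are given below as log2 processed signal after subtracting the log2 75th percentile of each array, so that 0 is a probe at that percentile and 1 unit is a doubling. Levels of different probes are not compared. That percentile ranged from 311 to 525 signal units, and 53.7% to 63.1% of spots per array were well above background. The targeted gene Insr was lower in IRLKO at every time, with log2 ratios of -1.77, -1.88 and -1.65 at ZT8, ZT12 and ZT16 on its brighter probe (chr8:3155472-3155531, mm9), and no knockout array overlapped a control array at the same time. On the second Insr probe, well above background on 27 of 36 arrays, the groups did not overlap at ZT8 and ZT12 and overlapped at ZT16. One library, IRLKO replicate 3 at ZT8, stood apart from the other 5 knockouts of that time. Its score on the second principal component of all genes was 3.03, against 29.1 to 46.0 in the others. It was the lowest of the 6 for 7 of the 10 genes, so ZT8 values of the genes in which it was lowest are also given without it.

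**Figure D1:**
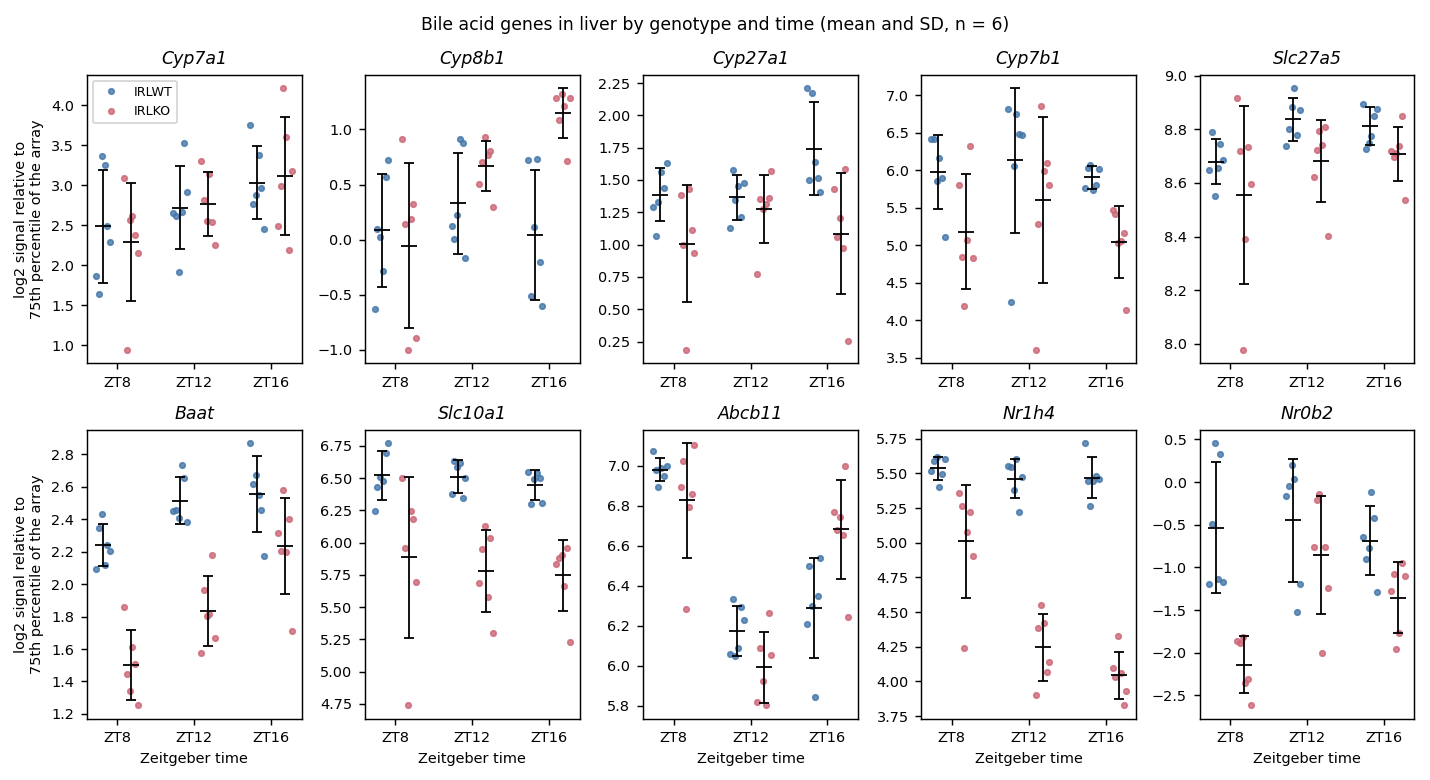
Level of each of the 10 genes on every array (log2 relative to the array's 75th percentile) by ZT in hours and genotype, with the mean ± SD of 6 arrays. Slc10a1 is drawn from the probe that lists that gene alone. The knockout arrays of Nr1h4 lie below the control arrays at all 3 times, while those of Cyp7a1 lie among them.

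Of the 10 genes, 3 differed between genotypes at ZT8, 2 at ZT12 and 5 at ZT16 (limma, Benjamini-Hochberg adjusted p under 0.05 over all genes). Among all genes tested, 35.5%, 42.3% and 40.0% differed at these times, so the counts are near or below that background, except for 5 of 10 at ZT16, which is slightly above it. Nr1h4 and Baat were lower in IRLKO at all 3 times, Nr0b2 was lower at ZT8, and Cyp27a1 was lower at ZT16. Cyp8b1 and Abcb11 were higher in IRLKO at ZT16. Genes lower in IRLKO made up 3, 2 and 3 of the 10 at the 3 times, against 18.7%, 22.7% and 20.1% of all genes. Genes higher in IRLKO made up 0, 0 and 2 of the 10, against 16.7%, 19.6% and 20.0%, and at ZT8 and ZT12 0 of the 10 were higher at an unadjusted p under 0.05 in limma. The median log2 ratio of the 10 genes was -0.30, -0.17 and -0.21, against 0.01, -0.02 and 0.00 over all genes. With quantile scaling between arrays, 5 genes passed at ZT8 (1 higher and 4 lower) and 3 at ZT16 (1 higher and 2 lower), since Abcb11 and the brightest Slc10a1 probe were gained at ZT8 (-0.33 and 0.11) and Abcb11 and Baat were lost at ZT16. These counts use the brightest probe of each gene. With probes that list 1 gene, Slc10a1 is added as lower at all 3 times and the counts become 4, 3 and 6. The shares of all genes under quantile scaling and in the fit of those probes are not given here. The counts under these settings therefore have no background beside them.

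**Figure D2:**
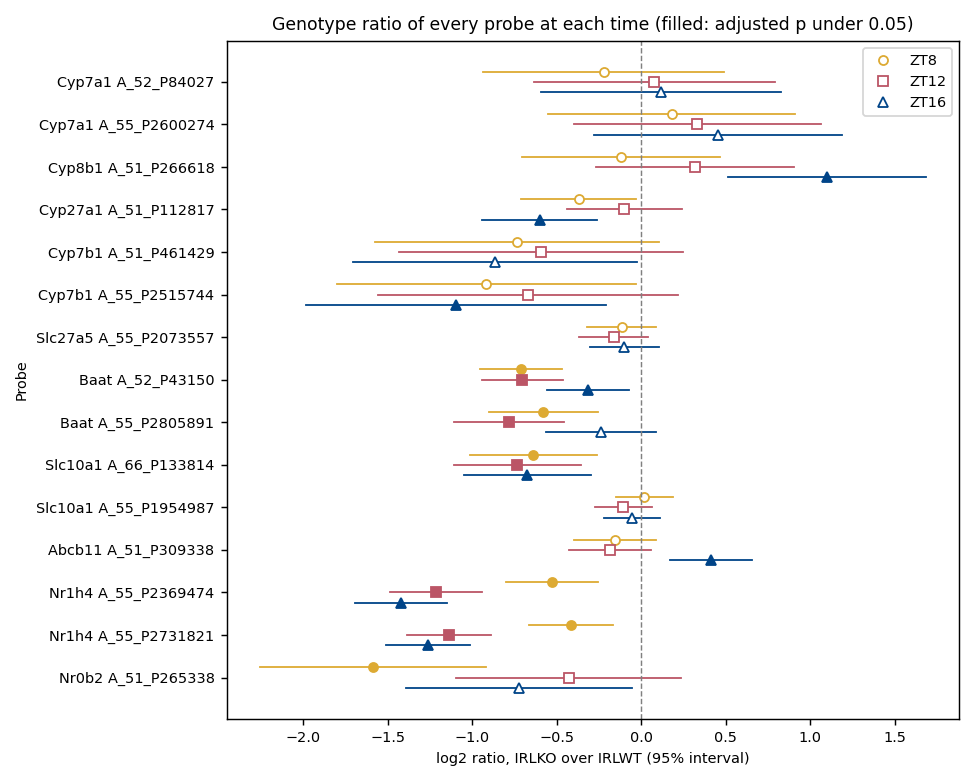
Log2 ratio of IRLKO to IRLWT with its 95% confidence interval for each of the 15 probes at ZT8, ZT12 and ZT16 (6 arrays against 6). Filled symbols have an adjusted p under 0.05 in the fit of all probes. The brighter Nr1h4 probe goes from -0.53 at ZT8 to -1.42 at ZT16, and Cyp8b1 from -0.12 to 1.1.

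Cyp7a1, the rate-limiting enzyme of the classic route, did not pass the test at any time. Its probe at chr4:6193456-6193515 (mm9, minus strand) read 1.63, 2.39 and 3.36 (lowest, median and highest) in IRLWT and 0.94, 2.47 and 3.10 in IRLKO at ZT8. At ZT12 it read 1.92, 2.66 and 3.53 in IRLWT and 2.25, 2.69 and 3.30 in IRLKO, and at ZT16 2.46, 2.92 and 3.76 against 2.19, 3.09 and 4.22. The arrays of the 2 genotypes overlapped at each time. The log2 ratios were -0.22 (95% interval -0.93 to 0.49), 0.08 (-0.63 to 0.79) and 0.12 (-0.59 to 0.83), with adjusted p of 0.664, 0.876 and 0.817. The intervals hold values from a fall to a rise of over 0.5 units at ZT12 and ZT16, so a change of that size is not excluded at these times. A second, dimmer Cyp7a1 probe, annotated to a transcript within chr4:6200012-6202672, gave 0.18, 0.33 and 0.45, with adjusted p of 0.74, 0.49 and 0.34. The annotation of that probe matched no RefSeq gene.

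Cyp8b1, the sterol 12-alpha-hydroxylase that sets the share of cholic acid, was higher in IRLKO at ZT16. On its only probe (chr9:121824595-121824654, mm9, minus strand) the control arrays at ZT16 read -0.60 at the lowest, -0.04 at the median and 0.73 at the highest, and the knockout arrays 0.72, 1.25 and 1.32. Of the 6 knockout arrays, 5 lay above every control array. The log2 ratio was 1.1 ± 0.29 (SE), a 2.14-fold higher level, with an adjusted p of 0.00282, and the exact two-sided permutation p over the 6 and 6 arrays was 0.00649. Within the 3 wash batches, which hold 1 to 3 arrays per group, the ratio was 1.90, 0.58 and 1.14. At ZT8 the controls read -0.63, 0.06 and 0.72 and the knockouts -1.0, 0.17 and 0.92. At ZT12 the values were -0.17, 0.17 and 0.92 against 0.30, 0.74 and 0.93. The genotypes overlapped at both of these times and neither ratio passed the test (-0.12 and 0.32, adjusted p of 0.79 and 0.39). Without replicate 3 of IRLKO at ZT8 the ZT8 ratio was 0.10, which also did not pass.

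Cyp27a1, the mitochondrial sterol 27-hydroxylase, was lower in IRLKO at ZT16. Its probe (chr1:74782203-74782262, mm9, plus strand) read 1.41, 1.58 and 2.21 in the controls and 0.26, 1.13 and 1.59 in the knockouts, with 4 of 6 knockout arrays below every control. The log2 ratio was -0.60 ± 0.17 (SE), a level of 66.0% of control, with an adjusted p of 0.00464. The within-batch ratios ran from -0.68 to -0.53, so the difference had the same sign in all 3 batches. At ZT8 the values were 1.06, 1.38 and 1.64 in the controls and 0.18, 1.06 and 1.43 in the knockouts, and the ratio of -0.37 did not pass (adjusted p of 0.0844), nor did the -0.24 found without replicate 3 of IRLKO. At ZT12 they were 1.13, 1.40 and 1.58 against 0.78, 1.33 and 1.57, with a ratio of -0.10.

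Cyp7b1, the oxysterol 7-alpha-hydroxylase of the alternative route, varied widely between arrays of one group. Its probe at chr3:17972286-17972345 (mm9, minus strand) read 5.11, 6.04 and 6.42 in the controls and 4.19, 4.96 and 6.33 in the knockouts at ZT8, and 4.24, 6.48 and 6.82 against 3.60, 5.90 and 6.86 at ZT12. At ZT16 it read 5.73, 5.91 and 6.07 in the controls and 4.13, 5.11 and 5.47 in the knockouts. The genotypes overlapped at ZT8 and ZT12 and did not overlap at ZT16, where the exact two-sided permutation p was 0.00216, the smallest that 6 against 6 arrays allow. The log2 ratios were -0.73, -0.59 and -0.86 (SE 0.41), and none passed the test over all genes (adjusted p of 0.171, 0.258 and 0.0953), in which all 6 groups share one estimate of the spread. The ZT8 ratio was -0.53 without replicate 3 of IRLKO, which did not pass either. With only the 12 arrays of ZT16 in the fit, the ratio was -0.80 and the adjusted p 0.00754. The second Cyp7b1 probe, annotated within chr3:17972720-17996548, gave -0.92, -0.67 and -1.09, and its ZT16 value passed over all probes (adjusted p of 0.0466), again with no overlap at ZT16. That call was lost in 4 of 13 other settings with all arrays and in 20 of 36 fits that left out 1 array (adjusted p up to 0.106).

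Slc27a5, the bile acid CoA ligase that activates bile acids for conjugation, did not pass the test at any time. Its probe (chr7:13573701-13573760, mm9, minus strand) read 8.55, 8.67 and 8.79 in the controls and 7.98, 8.66 and 8.92 in the knockouts at ZT8. The values were 8.74, 8.84 and 8.95 against 8.40, 8.73 and 8.81 at ZT12, and 8.73, 8.81 and 8.90 against 8.54, 8.71 and 8.85 at ZT16. Every group overlapped its counterpart. The log2 ratios were -0.12 (95% interval -0.32 to 0.09), -0.16 (-0.37 to 0.04) and -0.10 (-0.30 to 0.10), so that falls of more than 0.37 units lie outside the intervals. At ZT8 the ratio was 0.0090 without replicate 3 of IRLKO.

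Baat, the enzyme that joins activated bile acids to taurine or glycine, was lower in IRLKO at all 3 times. Its brighter probe (chr4:49502933-49502992, mm9, minus strand) read 2.09, 2.22 and 2.43 in the controls and 1.25, 1.48 and 1.86 in the knockouts at ZT8, and 2.39, 2.45 and 2.73 against 1.58, 1.81 and 2.18 at ZT12. At ZT16 it read 2.17, 2.58 and 2.87 against 1.71, 2.26 and 2.58. The genotypes did not overlap at ZT8 and ZT12, and at ZT16 only 1 of the 6 knockout arrays lay below every control. The log2 ratios were -0.71, -0.70 and -0.32 (SE 0.12), or 61.0%, 61.4% and 80.4% of the control level, with adjusted p of 1.8e-05, 1.7e-05 and 0.0327. The ZT16 call was lost in 7 of 14 other settings with all arrays, with adjusted p from 0.056 to 0.129, and in 7 of 36 fits that left out 1 array (adjusted p up to 0.107). The second Baat probe (chr4:49502399-49502458) gave -0.58, -0.78 and -0.24, of which the ZT16 value did not pass (adjusted p of 0.249). On it the genotypes overlapped at ZT8, with 4 of 6 knockout arrays below every control, and did not overlap at ZT12.

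Slc10a1, the sodium-dependent uptake carrier NTCP of the sinusoidal membrane, has 2 probes that gave different results. The brighter one (chr12:82056539-82056598, mm9, minus strand) lists 4 genes in the array's annotation, namely Slc10a1, Med16, Spc24 and 4930402H24Rik. Its group medians lay between 9.42 and 9.47 in all 6 groups, and its ratios were 0.02, -0.10 and -0.05, none of which passed the test. The other probe (chr12:82054180-82054239) lists Slc10a1 alone, through another RefSeq transcript of the gene. It read 6.24, 6.49 and 6.77 in the controls and 4.74, 6.07 and 6.50 in the knockouts at ZT8. At ZT12 it read 6.35, 6.54 and 6.64 against 5.30, 5.82 and 6.13, and at ZT16 6.30, 6.50 and 6.55 against 5.23, 5.86 and 5.96. The genotypes overlapped at ZT8 and did not overlap at ZT12 or ZT16. In the fit of probes that list 1 gene, the log2 ratios were -0.64, -0.73 and -0.67 (SE 0.18), or 64.3%, 60.2% and 62.7% of control, with adjusted p of 0.00726, 0.0019 and 0.00407. Without replicate 3 of IRLKO at ZT8 the ZT8 ratio was -0.41 with an adjusted p of 0.028. The ZT8 call was lost in 1 of 14 other settings with all arrays (adjusted p of 0.0693), and the within-batch ratios at ZT8 ran from -1.22 to -0.19. Which probe reads the main Slc10a1 transcript of liver was not tested.

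**Figure D3:**
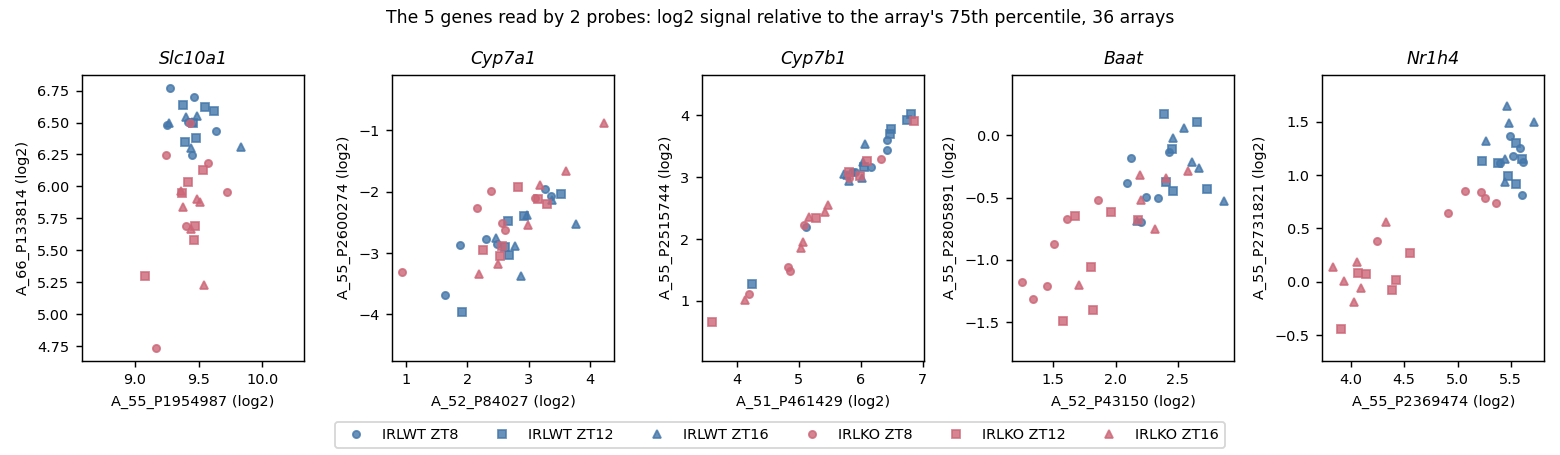
Level on the brighter probe (horizontal axis) and on the other probe (vertical axis) of the 5 genes with 2 probes, in log2 relative to the array's 75th percentile, 1 point per array, coloured by genotype and shaped by time. Both Cyp7b1 probes and both Nr1h4 probes have a lower mean in IRLKO than in IRLWT at each time. The Slc10a1 arrays of both genotypes lie between 9.08 and 9.83 on the brighter probe and spread from 4.74 to 6.77 on the other.

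Abcb11, the bile salt export pump of the canalicular membrane, was higher in IRLKO at ZT16. Its probe (chr2:69076390-69076449, mm9, minus strand) read 5.84, 6.32 and 6.54 in the controls and 6.25, 6.71 and 7.0 in the knockouts at that time, and 5 of 6 knockout arrays lay above every control. The log2 ratio was 0.41 ± 0.12 (SE), a 1.33-fold higher level, with an adjusted p of 0.00617. The within-batch ratios were -0.04, 0.63 and 0.44, so 1 of the 3 wash batches did not show it. The call was also lost in 2 of 14 other settings with all arrays (adjusted p up to 0.0633). Under quantile normalization, 1 of these, the ratio was 0.28 and the adjusted p 0.0611. At ZT8 the controls read 6.90, 6.99 and 7.07 and the knockouts 6.29, 6.88 and 7.10. At ZT12 they read 6.05, 6.16 and 6.33 against 5.80, 5.99 and 6.26. Both pairs overlapped, and the ratios of -0.15 and -0.19 did not pass (adjusted p of 0.339 and 0.214). The ratio at ZT8 was -0.050 without replicate 3 of IRLKO.

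Nr1h4 had the lowest adjusted p of the 10 genes at ZT12 and ZT16. Its brighter probe (chr10:88917222-88917281, mm9, minus strand) read 5.40, 5.55 and 5.62 in the controls and 4.24, 5.15 and 5.36 in the knockouts at ZT8. At ZT12 the values were 5.23, 5.51 and 5.60 against 3.91, 4.26 and 4.55, and at ZT16 5.27, 5.45 and 5.72 against 3.83, 4.05 and 4.32. On this probe no knockout array reached any control array of the same time. The exact permutation test gave 0.00216 each time, the smallest p it can give. The log2 ratios were -0.53, -1.21 and -1.42 (SE 0.13), or 69.3%, 43.1% and 37.4% of the control level, with adjusted p of 0.00242, 1.7e-08 and 7.9e-10. The second probe (chr10:88960160-88960219), whose annotation matched no RefSeq gene, gave -0.42, -1.14 and -1.26. All 3 passed over all probes (adjusted p of 0.0084, 1.1e-08 and 1.5e-09). On it the genotypes overlapped at ZT8, with 4 of 6 knockout arrays below every control, and did not overlap at ZT12 or ZT16. Without replicate 3 of IRLKO at ZT8, which held the lowest value of its group, the ZT8 ratio on the brighter probe was -0.36 with an adjusted p of 0.0074.

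Nr0b2, the FXR target that represses bile acid synthesis, was lower in IRLKO at ZT8. Its probe (chr4:133109694-133109753, mm9, plus strand) read -1.20, -0.81 and 0.46 in the controls and -2.62, -2.10 and -1.81 in the knockouts, with no overlap. The log2 ratio was -1.59 ± 0.33 (SE), or 33.3% of the control level, with an adjusted p of 3.1e-04, and the within-batch ratios ran from -1.94 to -1.13. Replicate 3 of IRLKO at ZT8 was the highest of the knockouts here. At ZT12 the controls read -1.53, -0.11 and 0.20 and the knockouts -2.00, -0.76 and -0.14, and at ZT16 they read -1.29, -0.71 and -0.11 against -1.96, -1.19 and -0.95. The genotypes overlapped at both times, and the ratios of -0.43 and -0.72 did not pass (adjusted p of 0.307 and 0.0777).

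Counted on the brightest probes, the 2 genotypes did not overlap for 3 of the 10 genes at ZT8 (Nr1h4, Nr0b2 and Baat), 2 at ZT12 (Nr1h4 and Baat) and 2 at ZT16 (Nr1h4 and Cyp7b1). Over all genes tested, 15.5%, 21.4% and 19.2% did not overlap at these times, so the counts at ZT12 and ZT16 are close to that background.

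The change over the evening was then compared within each genotype. In IRLWT, 1 of the 10 genes changed from ZT8 to ZT12, 0 from ZT12 to ZT16 and 2 from ZT8 to ZT16, against 14.8%, 3.62% and 26.6% of all genes. In IRLKO, 3, 2 and 3 changed, against 13.2%, 12.6% and 28.9%. From ZT12 to ZT16 in IRLWT, 0 of the 10 also had an unadjusted p under 0.05 in limma.

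Abcb11 fell between ZT8 and ZT12 in both genotypes, with log2 changes of -0.81 in IRLWT and -0.84 in IRLKO (SE 0.12, adjusted p of 1.4e-05 and 1.6e-05). From ZT12 to ZT16 it rose by 0.69 in IRLKO (adjusted p of 1.4e-04) and changed by 0.09 in IRLWT, which did not pass. At ZT16 the IRLWT level was therefore still 0.71 units under that at ZT8, a fall that passed (adjusted p of 2.7e-05), while the IRLKO change over the same hours was -0.15 and did not pass. Baat rose in IRLKO by 0.42 from ZT12 to ZT16 and by 0.71 from ZT8 to ZT16, with adjusted p of 0.0146 and 2.3e-05, and in IRLWT by 0.31 from ZT8 to ZT16 with an adjusted p of 0.0487. That IRLWT call was lost in 7 of 14 other settings with all arrays (adjusted p up to 0.299) and in 25 of 36 fits that left out 1 array (up to 0.134). The IRLKO call of Baat from ZT12 to ZT16 was lost in 1 of 14 other settings with all arrays (adjusted p of 0.0894). It was also lost in 1 of 36 fits that left out 1 array (adjusted p of 0.0563). Nr1h4 fell in IRLKO by 0.76 from ZT8 to ZT12 and by 0.96 from ZT8 to ZT16 (adjusted p of 2.8e-04 and 1.7e-06). In IRLWT its changes over the same intervals were -0.07 and -0.07, and neither passed. The IRLKO call of Nr1h4 from ZT8 to ZT12 was lost in 1 of 14 other settings with all arrays (adjusted p of 0.0778). Cyp8b1 rose by 1.18 in IRLKO from ZT8 to ZT16 (adjusted p of 0.00188), where the IRLWT change was -0.03. Nr0b2 rose by 1.24 in IRLKO from ZT8 to ZT12 (adjusted p of 0.0112), where the IRLWT change was 0.08. That IRLKO call was lost in 1 of 14 other settings with all arrays (adjusted p of 0.0554). The F test of whether the genotype difference of Nr0b2 changed with time did not pass (adjusted p of 0.229), so such a change is not shown. Cyp7a1, Cyp7b1, Cyp27a1, Slc27a5 and Slc10a1 passed in no time comparison of either genotype. For Cyp7a1 the change from ZT8 to ZT16 was 0.51 in IRLWT and 0.85 in IRLKO, with adjusted p of 0.312 and 0.0665.

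Whether the genotype difference itself changed with time was tested by interaction contrasts. Over all 3 times (F test), 2 of the 10 genes passed, against 8.46% of all genes, and these were Nr1h4 (adjusted p of 0.0053) and Abcb11 (0.0265). The same 2 genes passed for ZT16 against ZT8, where 9.74% of all genes did. The genotype log2 ratio of Nr1h4 was 0.89 units lower at ZT16 than at ZT8, a difference of -0.89 ± 0.19 (SE) with an adjusted p of 0.00217. Without replicate 3 of IRLKO at ZT8 it was -1.08 with an adjusted p of 9.3e-06. For Abcb11 the difference was 0.56 ± 0.17 (SE) with an adjusted p of 0.0285, and 0.45 with an adjusted p of 0.049 without that array. The Abcb11 call was lost in 2 of 14 other settings with all arrays (adjusted p up to 0.0804). For Cyp8b1 the difference was 1.22, with an adjusted p of 0.0545 that did not pass, so the ZT16 effect on Cyp8b1 is not shown to differ from that at ZT8. No gene of the 10 passed for ZT12 against ZT8 or for ZT16 against ZT12, where 1.25% and 1.96% of all genes did. Of the 10, 2 and 3 had an unadjusted p under 0.05 in limma, a threshold at which the share of all genes is not given here. The 2 contrasts nearest to passing in these comparisons were Abcb11 for ZT16 against ZT12 (0.60, adjusted p of 0.0549) and Nr1h4 for ZT12 against ZT8 (-0.69, adjusted p of 0.0692). Without replicate 3 of IRLKO at ZT8, 1 of the 10 passed in each.

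Other enzymes of bile acid synthesis, 18 of 18 tested, moved both ways: 5 were higher and 8 lower in IRLKO at ZT8, and 4 higher and 8 lower at ZT12 and at ZT16. Cyp2a12, a bile acid hydroxylase in mouse liver, was lower at all times, with ratios of -1.52, -1.62 and -1.69. Scp2, which carries and thiolyses the sterol side chain in peroxisomes, was also lower, at -1.01, -0.92 and -0.59. Hsd3b7, the 3-beta-hydroxysteroid dehydrogenase that follows the 7-alpha-hydroxylases, was lower at ZT8 and ZT12 (-1.04 and -0.34) and higher at ZT16 (0.33), and all 3 passed, although under quantile scaling the ZT16 value was 0.19 and did not. Por, the reductase that feeds electrons to microsomal P450 enzymes, was higher at ZT8 and ZT12 (1.38 and 0.86) and did not pass at ZT16 (0.18).

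Of 16 further transporters, 15 were tested (Slc51a was not), and 5, 5 and 7 were higher and 6, 6 and 7 lower at the 3 times. Slc10a2, the sodium-dependent carrier known best from ileum and bile ducts, was lower at -2.20, -2.45 and -2.77. Abcg2, a canalicular export pump, was lower at -1.52, -1.78 and -1.61, and Slco2b1, an organic anion carrier, at -1.36, -1.93 and -1.86 on its brightest probe. As a mean over its probes Slco2b1 was at -0.12 and -0.32 at ZT8 and ZT12 and did not pass. Slco1a4, another organic anion carrier, was higher at 1.93, 1.51 and 0.99.

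Of 21 regulators, 20 were tested (Vdr was not), and 3, 4 and 2 were higher and 3, 4 and 8 lower. Ppargc1a, a coactivator of fasting metabolism, was higher at 2.19, 2.20 and 1.89. Klb, the co-receptor through which intestinal FGF15 signals, was higher at ZT8 and ZT12 (0.39 and 0.87) and did not pass at ZT16 (0.18). Its ZT8 call was lost in 2 of 14 other settings with all arrays (adjusted p up to 0.301). Mafg, an FXR-induced repressor of Cyp8b1 and other synthesis genes, was lower at -0.34, -0.33 and -0.48. Its ZT12 call was lost in 2 of 14 other settings with all arrays (adjusted p up to 0.0921). Dbp, a clock output factor, did not pass at ZT8 (-0.10) and was lower at ZT12 and ZT16 (-0.72 and -1.32). Of 5 detoxification genes, 4 were tested (Ugt1a1 was not), and 2, 2 and 0 were higher and 1 lower at each time. Cyp2b10, a target of the xenobiotic receptor CAR, was higher at ZT8 and ZT12 (3.14 and 2.61) and did not pass at ZT16 (0.93). Sult2a8, a bile acid sulfotransferase, was lower at -2.87, -2.69 and -2.36.

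**Figure D4:**
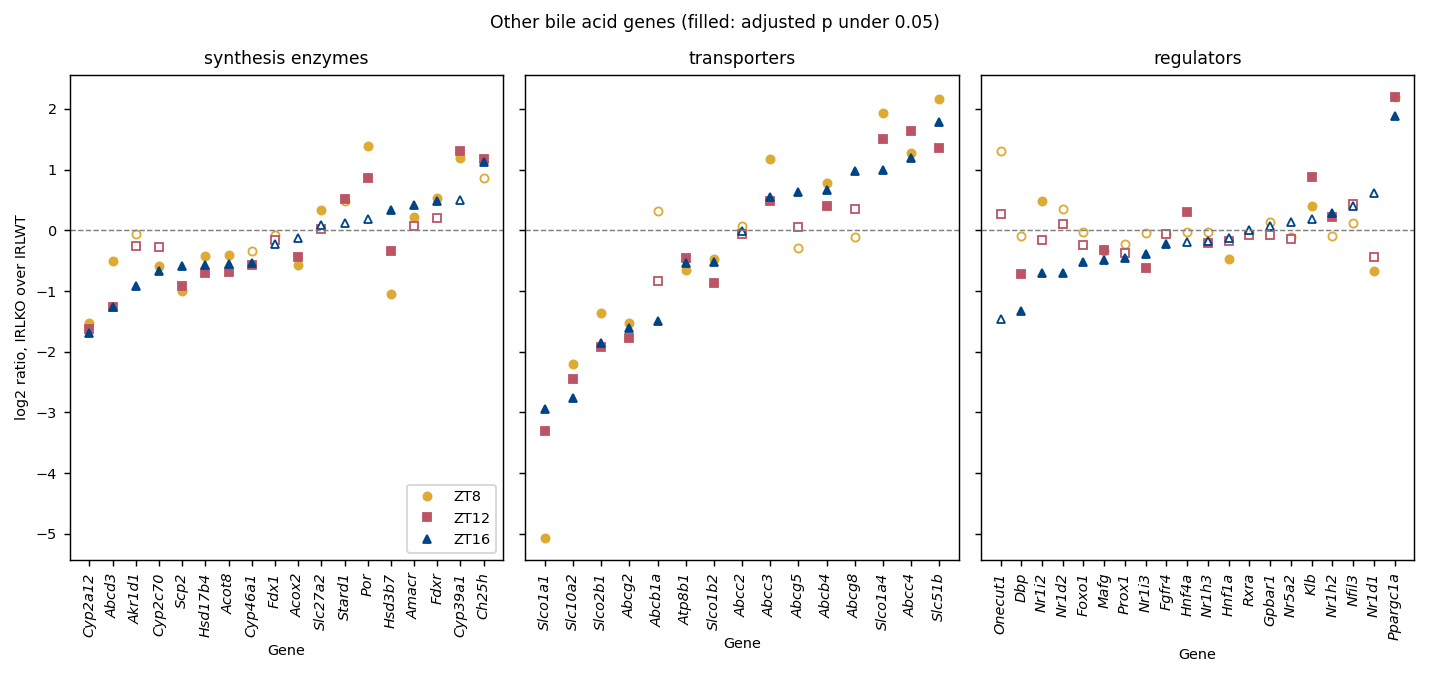
Log2 ratio of IRLKO to IRLWT at ZT8, ZT12 and ZT16 for the synthesis enzymes, transporters and regulators tested beside the 10 genes, 1 point per gene and time, filled where the adjusted p was under 0.05. Points lie on both sides of 0 in each list, from Cyp2a12 at -1.69 to Por at 1.38 among the enzymes.

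Lists of zonation and of sex bias in liver were read in the same fit. Of 7 pericentral genes, 3, 1 and 1 were higher and 1, 2 and 2 lower, with Cyp1a2 lower at -1.85, -1.50 and -1.67 and Lgr5 higher at 0.57, 0.54 and 1.23. Slc1a2 was lower at ZT16 alone (-0.41) and Oat higher at ZT8 alone (0.78). Of 5 periportal genes, 2, 4 and 4 were higher and 1 lower at each time, with Pck1 higher at 1.39, 1.42 and 1.28 and Cyp2f2 lower at -3.34, -2.20 and -1.86. Hal and Sds were higher at ZT12 (0.70 and 1.28) and ZT16 (1.11 and 1.06). Of 9 male-biased genes, 8 were tested and 8, 7 and 7 were lower in IRLKO, among them Cyp2d9 at -2.58, -2.47 and -1.83. Elovl3 and Hsd3b5 were also lower, at -7.38, -7.24 and -6.67 and at -9.81, -8.77 and -7.23, although 1 or 2 of the 6 knockout arrays at each time were not well above background for each. Of 10 female-biased genes, 8 were tested and 8, 6 and 2 were higher. Cux2 was higher at ZT12 and ZT16 (4.96 and 3.44), with 5 of 6 control arrays well above background at each. At ZT8, where it also passed, only 2 of 6 control arrays were well above background. Cyp3a16 was higher at ZT8 (0.50) and did not pass at ZT12 or ZT16. The part of these lists in the results for the bile acid genes was not tested.

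Markers of liver cell types were read beside the results for all 10 genes. Of 7 hepatocyte markers, 6 were tested, all above background on every array, and 0, 1 and 1 were higher and 2, 3 and 3 lower in IRLKO. Their summed signal, in multiples of the array's 75th percentile, ran from 2814 to 3319 in the IRLWT arrays and from 2029 to 2888 in the IRLKO arrays. Alb was lower at -0.41, -0.35 and -0.39, and Ttr, the gene whose promoter drives the Cre, at -1.12, -1.02 and -0.97. Both are part of the sum. At ZT12 and ZT16 Asgr1 was lower (-0.44 and -0.57) and Fgb was higher (0.25 and 0.52), while neither passed at ZT8. Apoa1 and Cps1 did not pass at any time. All 6 Kupffer cell markers had ratios above 0 at the 3 times, and 1, 3 and 2 of them passed. Their summed signal had medians of 24.3, 28.6 and 31.1 in IRLWT, over a range of 13.3 to 91.1, and 67.0, 82.6 and 49.9 in IRLKO, over a range of 28.5 to 196. Of 5 endothelial markers, 0, 4 and 3 were higher, with medians of the sum of 30.3, 25.2 and 27.9 in IRLWT and 29.5, 36.2 and 38.6 in IRLKO. Of 6 stellate cell markers, 0, 2 and 2 were higher, with medians of 9.48, 7.35 and 7.23 against 8.94 at ZT8, 8.46 at ZT12 and 10.02 at ZT16. Of 6 bile duct markers, 4 were not well above background on every array, 1 was lower at ZT12 (Spp1) and 1 higher at ZT16 (Sox9), with medians of the sum of 6.74, 9.11 and 5.35 against 6.37, 5.13 and 5.70. The part of cell composition in the results was not tested.

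The genes whose levels over the 36 arrays were most like those of 4 members were found by Pearson r after removing wash batch means, among 13176 genes above background on every array. The arrays share genotype and time groups, so r is a description. For Cyp7a1 they were Mrpl19 (0.71), 2500002B13Rik (0.67) and Mrpl35 (0.65), and for Cyp8b1 Vipas39 (0.77), Icam4 (0.73) and Zfp93 (0.72). For Cyp7b1 they were Susd4 (0.81), Parvb (0.80) and Pax2 (0.80). For Nr0b2 they were Dph1 (0.75), Srebf1 (0.75) and Insig1 (0.74), of which Srebf1 and Insig1 are known as insulin-responsive genes of lipid synthesis.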

How the data were processed

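Total liver RNA of 36 samples was labelled with Cy3 and hybridised to 1 array each, per the labels. The deposited files give per spot a processed signal (intensity) and flags (other), made by Agilent Feature Extraction 10.10.1.1, per the submitters' processing notes. A deposited table of log2 values, used as an alternative, has identical sorted values in all 36 columns (median 7.65), as quantile normalization gives. Each column correlated best with its own array (r of at least 0.988), so it is uncentred and runs the same way; its background step is not given in the sources used here. Probe coordinates (mm9) and symbols are those of the file annotation.

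From these, log2 processed signal minus the array's 75th percentile was computed over non-control spots. Spots flagged as outliers were dropped. Probes well above background on at least 6 of 36 arrays were kept (34678 of 56605), and the probe of highest mean stood for each of 22916 genes. For 377 genes that probe lists more than 1 gene. limma 3.58.1 (R 4.3.3) fitted 6 group means with the wash batch of the labels (11, 12 and 13 arrays) as a fixed effect, with 28 residual degrees of freedom. Adjusted p is Benjamini-Hochberg over all genes, or over all probes for second probes, at a threshold of 0.05. Single probes were also compared by exact two-sided permutation of 6 against 6 arrays. The number of arrays limits the precision. The fit was tested on simulated data.

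The 10 genes, the lists and the alternatives were chosen with earlier results of these data known. Genes outside the 10 were named by rule: Insr, up to 4 genes of each list called in a genotype comparison, by smallest p, and the 3 genes most correlated with each of 4 members. Of these, Sult2a1 and Cyp4a12a are given no value because their probes list 2 genes. One further gene that the rule names is not reported here. Samples of different groups with the same replicate number did not deviate together: 14 of 90 such pairs correlated above 0.1, with a median of -0.005, so the numbers were not used as pairs. Alternatives tried were normexp background correction, quantile and median scaling, the deposited table, other filters, the mean over probes, no wash batch, the slide as a fixed or random effect, a replicate block, array weights, fits of only the groups compared, fits within a wash batch, probes listing 1 gene (added after seeing the data), and leaving out each array.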

Additional observations from a re-analysis of the deposited data

Results flagged for a closer look

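In 66 sets of 6 arrays (11 probes by 6 groups) the highest and lowest array were compared with the rest by Dixon's ratio, which chance alone passes in about 1 set in 20. It was passed in 4. Cyp27a1 in IRLKO at ZT12 read 0.777 in replicate 1 and 1.28 to 1.57 in the others. Cyp7b1 on its brighter probe read 4.13 in replicate 6 of IRLKO at ZT16, against 5.03 to 5.47, and 4.24 in replicate 2 of IRLWT at ZT12, against 6.05 to 6.82. Without the latter array the Cyp7b1 ratio at ZT12 was -0.94 with an adjusted p of 0.0461, where it had not passed with all arrays. Slc10a1 on the probe that lists 4 genes read 9.08 in replicate 6 of IRLKO at ZT12, against 9.37 to 9.53.

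The genotype effect differed between ZT16 and ZT8 by a test of the difference itself for Abcb11 and Nr1h4. The log2 ratio of IRLKO to IRLWT at ZT16 minus that at ZT8 was 0.56 for Abcb11 and -0.89 for Nr1h4. The Abcb11 call was lost in 2 of 14 other settings with all arrays.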

How the results depend on the processing

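Counts of the 10 genes at an adjusted p under 0.05 are given here as the reported count and then the settings that moved it by over 1.5 times. Genotype counts did so under quantile scaling, from 3 to 5 at ZT8 and from 5 to 3 at ZT16. Under the other settings with all arrays they were 3 to 4, 2 to 3 and 4 to 6 at the 3 times, leaving out 1 array 3, 2 to 3 and 4 to 6, and with the replicate block 3, 2 and 5. In IRLWT, ZT8 to ZT12 went from 1 to 2 with array weights and with only the groups compared, and ZT8 to ZT16 from 2 to 1 under normexp, median centring, no dim filter, the mean over probes, no wash batch, the slide as a fixed effect and only the groups compared (1 to 2 leaving out 1 array). In IRLKO, ZT8 to ZT12 went from 3 to 1 with only the groups compared (4 with array weights, 3 to 5 leaving out 1 array), ZT12 to ZT16 was 1 to 2 leaving out 1 array, and ZT8 to ZT16 went from 3 to 5 in the deposited table (4 with quantile scaling, the slide as a fixed effect, the replicate block or only the groups compared, 3 to 4 leaving out 1 array). For the genotype effect at ZT12 against ZT8, 0 became 1 with the mean over probes, no wash batch and array weights, and at ZT16 against ZT12, 0 became 1 under normexp, the deposited table, a filter on every array, the slide as a fixed or random effect, the replicate block and array weights (both 0 to 1 leaving out 1 array). At ZT16 against ZT8, 2 became 4 in the deposited table and 1 with no dim filter or only the groups compared (3 under 7 other settings, and 2 to 3 leaving out 1 array), and the F test went from 2 to 1 with no dim filter (1 to 3 leaving out 1 array). Over all wash batches, the sign turned for values that had not passed: Cyp8b1 at ZT8 was 0.033 with array weights (-0.32 to 0.096 leaving out 1 array). Slc10a1 at ZT8 was -0.31 as a mean over its 2 probes and -0.64 with probes listing 1 gene, a setting that leaves out the 4-gene probe. The 4-gene probe itself at ZT8 was -0.014 with median centring (-0.022 to 0.10 leaving out 1 array). At ZT12 it was 0.069 with quantile scaling and 0.17 in the deposited table, and at ZT16 0.10 and 0.084 (-0.11 to 0.0022 leaving out 1 array). Slc27a5 was 0.070 at ZT16 in the deposited table (at ZT8 -0.19 to 0.0090 leaving out 1 array), and Abcb11, which had passed at ZT16, was -0.044 there in wash batch 1. Other values that had not passed turned within a single wash batch: Cyp7a1 at ZT12 (-0.52) and ZT16 (-0.97), Cyp7b1 at ZT8 (0.19) and ZT12 (0.45), Cyp8b1 at ZT8 (0.63), Cyp27a1 at ZT12 (0.066), Slc27a5 at ZT8 (0.13), and the 4-gene probe of Slc10a1 at ZT8 (-0.11) and ZT16 (0.048). Leaving out 1 array also turned Cyp7a1, at -0.38 to 0.051, -0.10 to 0.28 and -0.12 to 0.31 for the 3 times and -0.028 to 0.35 on its second probe at ZT8, and Dbp at ZT8, at -0.28 to 0.0055. Of the values of single genes under settings other than leaving out an array or fitting within a batch, 1379 kept their direction and side of the threshold, 33 lost and 9 gained a call, and 9 changed sign. Leaving out 1 array, 3636 were kept, 55 lost and 4 gained a call, and 13 changed sign. Beside the 10 genes these counts take in second probes, Insr and the named synthesis, transporter, regulator and detoxification genes. Values that never passed also count as kept where the sign held. The Abcb11 interaction at ZT16 against ZT8 was lost in 2 of 14 other settings with all arrays (adjusted p up to 0.0804). It was also lost in 1 of 36 fits that left out 1 array, without replicate 1 of IRLWT at ZT16 (adjusted p of 0.0539). The causes were not tested.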
